A study of Rattus norvegicus with 7 samples.

Results

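Transcripts of 10 antioxidant defence genes were measured in the brain of rats whose diet held docosahexaenoic acid (DHA), a polyunsaturated fatty acid concentrated in neuronal membranes. The genes were Sod1, Sod2, Cat, Gpx1, Gpx4, Prdx1, Prdx6, Nfe2l2, Hmox1 and Nqo1, taken by symbol, and all 10 were found among the 15805 symbols listed for both tissues. The animals were male Sprague Dawley rats, 2 months old at the start and given the DHA diet for 6 weeks. There were 4 libraries of hippocampus and 3 of hypothalamus, and every one came from a DHA-fed animal. Libraries from chow-fed animals were not analysed here, and the values describe levels under DHA and not an effect of the diet. The labels do not say which libraries came from the same rat, and the replicate numbers are used here only to name libraries.

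DHA has many double bonds, and lipids that carry it are easily oxidised, which is one reason why antioxidant enzymes are studied in brain. Superoxide dismutases turn superoxide into hydrogen peroxide, and catalase, glutathione peroxidases and peroxiredoxins then remove the peroxide. Gpx4 and Prdx6 also reduce peroxides on intact phospholipids. Nfe2l2 encodes Nrf2, a transcription factor held low by Keap1 and released under oxidative or electrophilic stress, and it switches on genes such as Hmox1 and Nqo1 through a short DNA motif called the antioxidant response element.

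Levels are FPKM as deposited, a fragment count corrected for transcript length and library size, in 1 table per tissue. The tables were treated as separately normalized, so tissue and table cannot be told apart, and no test was run between them. For differences between tissues each library was rescaled to the same sum over shared symbols, and differences are means of log2(rescaled value + 1), hippocampus minus hypothalamus. The criterion for a higher level was that the lowest library of 1 tissue lay above the highest of the other. Known tissue markers separated all libraries: Slc17a7, a glutamate transporter of hippocampal pyramidal neurons, read 571 to 847 FPKM in hippocampus and at most 0.985 in hypothalamus, and Avp, which encodes vasopressin, read 2818 to 3712 FPKM in hypothalamus and at most 2.07 in hippocampus. Replicate 1 stood apart in both tissues. At 286 of 7586 hippocampal loci and 182 of 8129 hypothalamic loci of those at 5 FPKM or more in the others, it read under 0.1 times the lowest of them, against at most 11 loci for any other library. Calls of the 10 genes that change when it is left out are given with and without it.

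The stretches before the transcription starts show what the promoters of these genes have in common and where they differ. RefSeq promoters of the rat assembly GRCr8 were found for 8 of the 10 genes, all but Hmox1 and Prdx6. They hold 250 bases before and 50 after the start. They were searched on both strands for the core of the antioxidant response element, TGACNNNGC, and for the TATA element, TATAAA, which do not overlap each other in these genes. The element core was present in Sod2, Prdx1 and Nfe2l2, and in 12.1% of 33469 promoters. TATAAA was present in Sod1, Prdx1 and Nqo1, and in 14.2% of promoters. The 60 bases before the start are shown for these 3 genes and for Gpx1 and Gpx4, in which neither motif was matched, with TATAAA in capitals:
Sod1 (GRCr8, chr11:42942763-42942822, plus strand): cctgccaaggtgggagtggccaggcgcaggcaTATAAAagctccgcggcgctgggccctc
Prdx1 (GRCr8, chr5:135383846-135383905, plus strand): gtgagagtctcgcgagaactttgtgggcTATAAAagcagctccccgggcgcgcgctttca
Nqo1 (GRCr8, chr19:52220268-52220327, minus strand): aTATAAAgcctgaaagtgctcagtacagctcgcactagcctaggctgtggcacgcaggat
Gpx1 (GRCr8, chr8:117905402-117905461, plus strand): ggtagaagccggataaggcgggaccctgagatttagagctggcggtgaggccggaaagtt
Gpx4 (GRCr8, chr7:10303630-10303689, minus strand, the first of 3 listed starts): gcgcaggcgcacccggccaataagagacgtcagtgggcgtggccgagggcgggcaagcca

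The element core lay before the start in Sod2 and Prdx1, on the strand opposite to the gene in both. It is shown in capitals with 20 bases on either side:
Sod2 (GRCr8, chr1:50050175-50050223, minus strand): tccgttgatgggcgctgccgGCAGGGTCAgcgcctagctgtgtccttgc
Prdx1 (GRCr8, chr5:135383751-135383799, plus strand): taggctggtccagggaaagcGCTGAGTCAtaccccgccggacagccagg
In Nfe2l2 the core lay after the start, from base 39. A match is a description of the letters and not a site bound in these tissues, and a gene without a match may carry the element outside this window.

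Of the superoxide dismutases, Sod1 ranked 1 to 3 among the 10 genes in every library and Sod2 ranked 4 or 5. Sod1, which encodes the cytosolic copper-zinc enzyme, read 214, 212, 226 and 186 FPKM in hippocampus replicates 1 to 4 and 261, 163 and 229 FPKM in hypothalamus replicates 1 to 3. The hippocampal values lay inside the hypothalamic range. The difference was 0.27 on the log2 scale and changed sign, to -0.03, in FPKM as deposited, so no direction is given for Sod1. Sod2, the manganese enzyme of mitochondria, read 88.3, 113, 105 and 134 FPKM in hippocampus and 127, 76.9 and 81.9 FPKM in hypothalamus. The libraries overlapped through replicate 1, which was the lowest in hippocampus and the highest in hypothalamus. The difference was 0.53, and without replicate 1 of both tissues every hippocampus library lay above every hypothalamus library for Sod2 and for Sod1, with differences of 0.86 for Sod2 and 0.41 for Sod1. Leaving out hypothalamus replicate 1 alone separated both genes, and leaving out hippocampus replicate 1 alone separated Sod2.

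**Figure D1:**
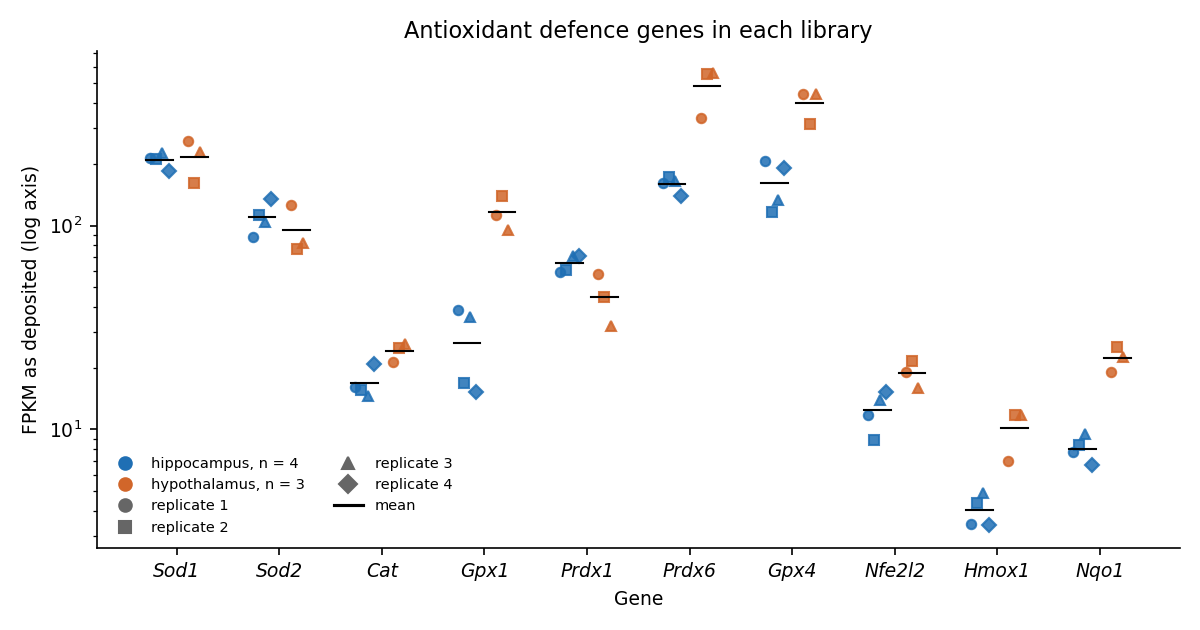
FPKM as deposited (log axis) of the 10 genes in each of the 4 hippocampus and 3 hypothalamus libraries, 1 symbol per library, shaped by replicate number, with a black line at the mean. On this scale points of the tissues are apart for Gpx1, Prdx6, Gpx4, Hmox1, Nqo1, Cat and Nfe2l2 (higher in hypothalamus) and for Prdx1 (higher in hippocampus), and mixed for Sod1 and Sod2.

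Enzymes that remove hydrogen peroxide did not share a direction. Gpx1, a selenoprotein and the main cytosolic glutathione peroxidase, read 113, 140 and 95.1 FPKM in hypothalamus and 38.7, 16.9, 35.4 and 15.3 FPKM in hippocampus. Every hypothalamus library was above every hippocampus library, and the rescaled mean was 3.55-fold higher, a difference of -1.92 on the log2 scale. This was the largest difference among the 10 genes. Gpx1 was also the most variable of them within hippocampus, where replicates 1 and 3 were high and replicates 2 and 4 were low. Its SD of log2(FPKM + 1) over the 4 libraries was 0.67, at percentile 91.6 of hippocampal loci that averaged 1 FPKM or more. The summed markers of choroid plexus in the same libraries were 4749, 35.9, 5967 and 2097 FPKM, those of endothelium 133, 92.1, 120 and 88.9 FPKM, and those of microglia 220, 192, 195 and 151 FPKM. These 3 sums were highest in replicates 1 and 3, where Gpx1 was high, but for choroid plexus and endothelium this rested on the most abundant gene. Without Ttr the 7 other choroid plexus markers summed to 97.8, 196 and 130 FPKM in replicates 1, 3 and 4 and were lowest in replicate 2, and without Cldn5 the 4 other endothelial markers summed to 28.1, 34.2, 42.4 and 36.6 FPKM. Without C1qa the 8 other microglial markers summed to 161, 138, 139 and 112 FPKM, with replicates 2 and 3 nearly equal. Singly, Csf1r, C1qa, C1qb, C1qc and Tmem119 were highest in replicates 1 and 3, and Cx3cr1, Aif1, P2ry12 and Trem2 were not. Erythrocyte markers, at 4.49, 4.98, 5.81 and 1.83 FPKM, and meningeal markers, at 85.7, 33.8, 294 and 101 FPKM, did not follow that order. Neuronal, astrocyte and oligodendrocyte sums were highest in replicates 2 and 4, but without Slc1a2 the 7 other astrocyte markers were highest in replicates 1 and 3, at 807, 740, 758 and 656 FPKM. In hypothalamus, where Gpx1 was higher, choroid plexus markers summed to at most 52.7 FPKM and endothelial markers to at most 82.7 FPKM, while microglial markers summed to 312 to 337 FPKM, above hippocampus. Their part in the level and spread of Gpx1 was not tested. Cat, the peroxisomal catalase, read 16.1, 15.6, 14.6 and 20.9 FPKM in hippocampus and 21.5, 25.2 and 26.2 FPKM in hypothalamus. After rescaling the libraries overlapped, at a difference of -0.24. As deposited, or with hippocampus replicate 4 left out, every hypothalamus library was higher.

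Prdx1, a cytosolic peroxiredoxin that uses thioredoxin, was the only one of the 10 that met the criterion for a higher level in hippocampus with all libraries. Its higher hippocampal locus read 59.0, 60.3, 70.8 and 71.0 FPKM, and the hypothalamic locus read 58.1, 44.4 and 32.2 FPKM. No values overlapped, though hippocampus and hypothalamus replicate 1 differed by less than 1 FPKM as deposited. The rescaled mean was 1.78-fold higher in hippocampus, a difference of 0.87. Prdx1 has a second hippocampal locus, at 6.11, 56.1, 61.8 and 110 FPKM, which was again low in replicate 1. With both loci summed the hippocampus libraries read 65.1, 116, 133 and 181 FPKM and the difference was 1.67. At this second locus alone replicate 1 lay below every hypothalamus library, so the separation holds for the higher locus and for the sum, and not for the second locus.

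Both enzymes that act on phospholipid peroxides were higher in hypothalamus. Prdx6, a peroxiredoxin abundant in astrocytes, read 338, 557 and 558 FPKM in hypothalamus and 163, 173, 166 and 140 FPKM in hippocampus. The rescaled mean was 2.45-fold higher, a difference of -1.26. Hypothalamus replicate 1 lay well below the other 2 and still above all hippocampus libraries. A second hypothalamic Prdx6 locus read 7.84 to 10.8 FPKM and was not added. Gpx4, a selenoprotein and the enzyme whose loss leads to ferroptosis, a cell death driven by lipid peroxides, read 440, 316 and 444 FPKM in hypothalamus. In hippocampus it read 208, 116, 133 and 191 FPKM, high in replicates 1 and 4 and low in replicates 2 and 3. The groups did not overlap, and the rescaled mean was 2.00-fold higher in hypothalamus, a difference of -1.03.

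Nfe2l2 did not separate the tissues after rescaling, while Hmox1 and Nqo1 did. Other genes known as Nrf2 targets, named after their values were seen, were split in direction. After rescaling, Gstp1, Txn1, Fth1, Ftl1, Gpx2 and Sqstm1 were higher in every hypothalamus library, at differences of -2.90, -1.29, -1.63, -3.12, -2.03 and -0.28. Gclc, Gsr and Srxn1 were higher in every hippocampus library, at differences of 0.97, 0.57 and 0.51, but overlapped in FPKM as deposited. Prdx1 was higher in hippocampus on both scales, and Txnrd1, Gclm and Slc7a11 overlapped. Nfe2l2 read 11.8, 8.87, 13.9 and 15.3 FPKM in hippocampus and 19.0, 21.6 and 16.0 FPKM in hypothalamus. The rescaled values overlapped at a difference of -0.31, but as deposited, or with hypothalamus replicate 3 left out, every hypothalamus library was higher. Hmox1, the inducible heme oxygenase, read 3.43, 4.36, 4.89 and 3.39 FPKM in hippocampus and 6.98, 11.7 and 11.8 FPKM in hypothalamus. It was the lowest of the 10 genes in every library. Its rescaled mean was 2.05-fold higher in hypothalamus, a difference of -0.96. Nqo1, a quinone reductase, read 7.71, 8.38, 9.46 and 6.66 FPKM in hippocampus and 19.2, 25.3 and 22.6 FPKM in hypothalamus. The groups lay far apart, at a rescaled ratio of 2.26-fold and a difference of -1.14. Whether the difference of Nfe2l2 was smaller than those of Hmox1 and Nqo1 was not tested between tables.

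Of the 10 genes, 5 were thus higher in every hypothalamus library and 1 in every hippocampus library, and 4 overlapped. All 10 had a mean of at least 1 FPKM. Among the 10736 symbols that met this minimum in a tissue, 24.4% were higher in hypothalamus and 28.2% in hippocampus by the same criterion. With a difference of at least 1 on the log2 scale required as well, 4 genes remained, all higher in hypothalamus, where 13.4% of all symbols met this, and none was higher in hippocampus, where 14.5% did. The median difference was -0.63 over the 10 genes and 0.05 over all symbols. In FPKM as deposited Cat and Nfe2l2 joined the genes higher in hypothalamus, which made 7, with 1 higher in hippocampus. All symbols moved the same way, to 35.2% higher in hypothalamus and 19.0% in hippocampus, and their median difference moved to -0.21. Without replicate 1 of both tissues 5 genes were higher in hypothalamus and 3 in hippocampus, where the shares of all symbols were 33.2% and 40.9%. Gpx1, Prdx6, Gpx4, Hmox1, Nqo1 and Prdx1 kept their direction and their separation under 4 scalings, with loci summed and with any 1 library left out.

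Differences between the tables were also present in families whose products mostly work in fixed proportion. Proteasome subunit genes and ribosomal protein genes were examined for this after values had been seen, beside all symbols, of which 5644 of 10736 (52.6%) did not overlap. Of 35 proteasome subunit genes, 20 did not overlap between the tissues, 10 in each direction, and their differences ran from -1.96 to 2.73 with an SD over genes of 0.92. Of these 35, 2 differed by at least as much as Gpx1 and 8 by at least as much as Nqo1. Without 5 genes that encode immunoproteasome replacements or assembly chaperones, 16 of 30 did not overlap, 2 differed as much as Gpx1 and 5 as much as Nqo1, with an SD of 0.88. Of 66 ribosomal protein genes, 44 did not overlap and the SD over genes was 2.09, or 43 of 63 and 1.98 without 3 paralogs. Of these 66, 23 differed by at least as much as Gpx1 and 31 by at least as much as Nqo1. The SD was 0.89 over the 10 antioxidant genes and 1.23 over all 10736 symbols. Within a tissue the median SD over libraries was 0.20 in hippocampus and 0.24 in hypothalamus for proteasome genes, 0.31 and 0.25 for ribosomal protein genes, and 0.24 and 0.25 for all loci that averaged 1 FPKM or more. For any single gene the share of a difference that belongs to the tissue and the share that belongs to the table cannot be told apart.

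**Figure D2:**
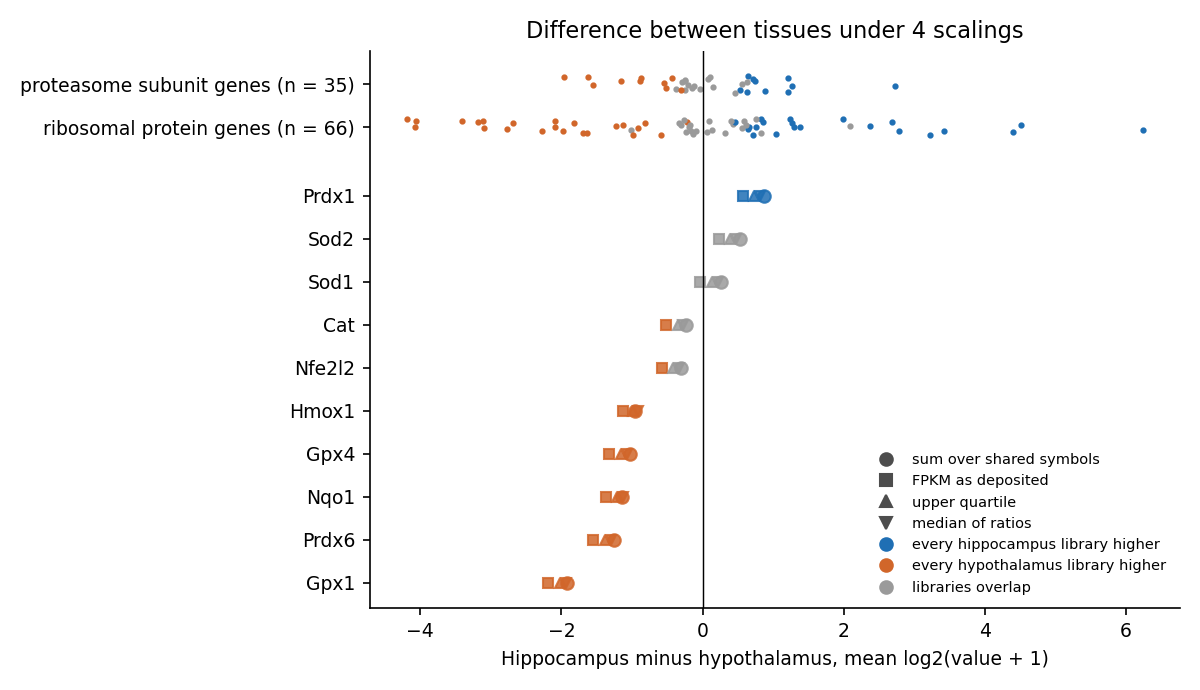
Hippocampus minus hypothalamus, as the mean of log2(value + 1), for the 10 genes under 4 scalings (symbol shape), with proteasome subunit and ribosomal protein genes under the first scaling above them, 1 point per gene. Color gives whether every library of a tissue was higher; Gpx1 to Hmox1 lie left of 0 under all 4 scalings and Prdx1 lies right of 0, and under the first scaling all 10 lie within the range of each reference family.

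The order of the 10 genes within a library does not depend on how the library was scaled. In hippocampus Sod1 ranked first or second in each library, with Prdx6 and Gpx4 at ranks 1 to 3. In hypothalamus Prdx6 and Gpx4 held ranks 1 and 2 in every library and Sod1 took rank 3. Gpx1 had a median rank of 6 in hippocampus and 4 in hypothalamus. Among all symbols of a library, Prdx6 lay at percentiles 97.4 to 98.1 in hippocampus and 98.9 to 99.4 in hypothalamus, Gpx1 at 72.8 to 88.5 and 94.6 to 96.9, and Nqo1 at 57.7 to 63.3 and 74.7 to 80.5. Hmox1 lay near the middle in hippocampus, at 47.9 to 51.8, and at 55.2 to 65.7 in hypothalamus.

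Ratios between 2 of the genes within a library do not depend on scaling either. Of 45 pairs, 24 had ratios that did not overlap between the tissues. Among all pairs of symbols above 0 in every library, 54.2% did not overlap, so the count for the 10 genes was near the background. Without replicate 1 of both tissues 35 of the 45 pairs did not overlap, against 73.5% of all pairs. The ratio of Gpx4 to Sod1 read 0.976, 0.550, 0.589 and 1.03 in hippocampus and 1.69, 1.94 and 1.94 in hypothalamus. Prdx6 over Sod1 was 0.734 to 0.816 in the 4 hippocampus libraries, a narrow range, and 1.30, 3.42 and 2.44 in hypothalamus. The widest gap was that of Gpx1 over Prdx1, at 0.215 to 0.656 in hippocampus and 1.95, 3.16 and 2.96 in hypothalamus. Nqo1 over Nfe2l2 was 0.435 to 0.944 in hippocampus and 1.01 to 1.41 in hypothalamus, without overlap. Hmox1 over Nfe2l2 overlapped, at 0.221 to 0.492 in hippocampus and 0.367 to 0.736 in hypothalamus. Prdx1 took part in 8 separated pairs, more than any other gene, and was relatively higher in hippocampus in all of them. The ratio of Sod2 to Sod1 overlapped, as did the ratios among Gpx1, Gpx4 and Prdx6.

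**Figure D3:**
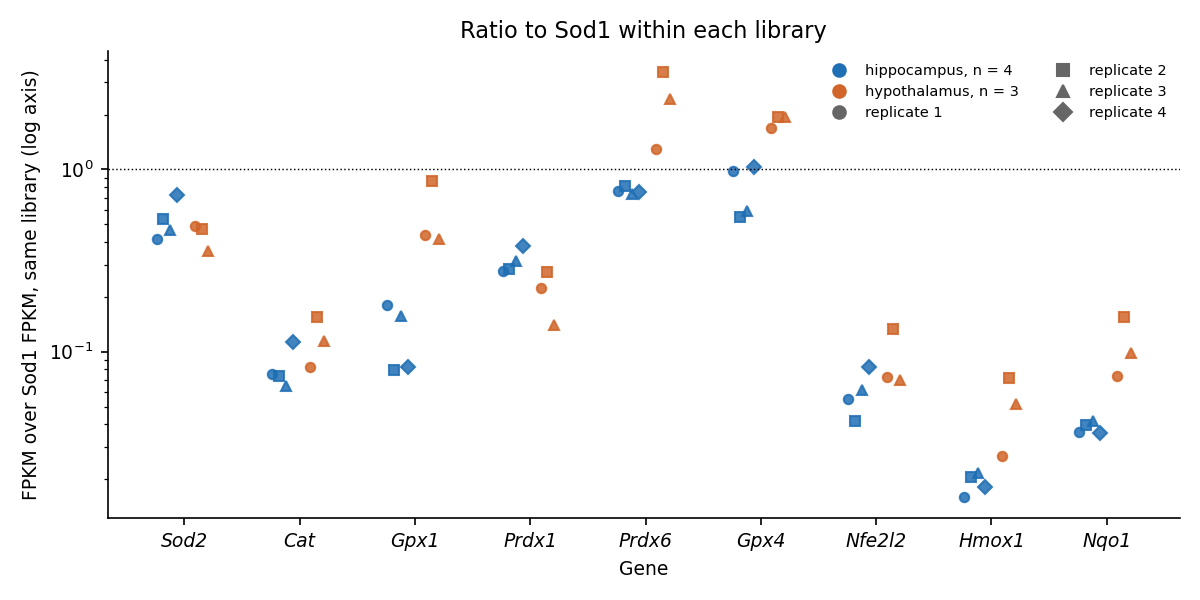
FPKM of each of the other 9 genes divided by Sod1 FPKM of the same library (log axis), for 4 hippocampus and 3 hypothalamus libraries, shaped by replicate number; the dotted line marks a ratio of 1. Prdx6 and Gpx4 lie above the line in all hypothalamus libraries, and in hippocampus Prdx6 lies below it throughout and Gpx4 reaches 1.03 at most.

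Replicates within a tissue agreed to different degrees from gene to gene. In hippocampus the highest library exceeded the lowest 1.20-fold for Prdx1, 1.22-fold for Sod1 and 1.23-fold for Prdx6, against 2.54-fold for Gpx1 and 1.79-fold for Gpx4. In hypothalamus the range went from 1.22-fold for Cat to 1.81-fold for Prdx1. The median SD of log2(FPKM + 1) over the 10 genes was 0.21 in hippocampus and 0.31 in hypothalamus, against 0.24 and 0.25 over all loci. Hypothalamus replicate 1 was the lowest library for Prdx6, Hmox1, Nqo1 and Cat and the highest for Sod1, Sod2 and Prdx1. Without it the SD of Prdx6 in hypothalamus went from 0.42 to 0.0025 and that of Hmox1 from 0.39 to 0.0064.

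In bulk tissue a different share of a cell type and a different amount of RNA per cell cannot be told apart. Prdx6 is rich in astrocytes and Gpx1 in microglia and blood, so marker lists were read beside them. Single markers were called on rescaled values, where 24.4% of all symbols were higher in hypothalamus and 28.2% in hippocampus. Sums are in FPKM as deposited, a scale on which these shares were 35.2% and 19.0%. Of 8 astrocyte markers, 3 (Aqp4, Aldh1l1 and Gjb6) were higher in every hypothalamus library and 1 (Slc1a2) in every hippocampus library, and their summed FPKM overlapped, at 1311 to 1519 in hippocampus and 1250 to 1686 in hypothalamus. Slc1a2, the most abundant, carried the overlap: the 7 others summed to 656 to 807 FPKM in hippocampus and 1059 to 1472 in hypothalamus. Of 9 microglial markers, of which C1qa was the most abundant, 4 read higher in hypothalamus and 1 in hippocampus, and the sums were 151 to 220 and 312 to 337 FPKM. The 3 erythrocyte markers found, mostly Alas2, summed to 1.83 to 5.81 FPKM in hippocampus and 8.66 to 29.4 in hypothalamus. Of 8 oligodendrocyte markers, 2 (Mbp and Mobp) were higher in hypothalamus, 2 (Mog and Cnp) in hippocampus and 4 overlapped. Their sums were 4096 to 4990 and 6154 to 8073 FPKM, and without Mbp, the most abundant, they overlapped at 2191 to 3211 and 3065 to 3983. Of 7 neuronal markers, led by Snap25, 4 read higher in every hippocampus library and 1 in every hypothalamus library, and the sums were 1796 to 2790 and 1431 to 1787 FPKM. Without Snap25 the 6 others overlapped, at 1227 to 1901 and 1074 to 1389 FPKM. Nefl, a neuronal marker that overlapped, read 0.174 FPKM in hippocampus replicate 1 and 174 to 288 FPKM in replicates 2 to 4. Of 5 endothelial markers found, led by Cldn5, 2 read higher in every hippocampus library and 3 overlapped, and the sums were 88.9 to 133 and 58.6 to 82.7 FPKM. Without Cldn5 the 4 others overlapped, at 28.1 to 42.4 and 28.6 to 40.2 FPKM. None of the choroid plexus or meningeal markers separated the tissues. Meningeal markers, led by Igf2, ranged from 33.8 to 294 FPKM in hippocampus and from 85.5 to 460 in hypothalamus, and Col1a2 was listed at 0 in all libraries. The part of these cell types in the differences was not tested. Names other than the most abundant marker of a list were chosen after values were seen.

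The wider pathways around these genes were examined through 10 lists with 72 genes, of which 66 were found and 61 reached the minimum of 1 FPKM. Of these 61, 20 were higher in every hypothalamus library, 16 in every hippocampus library and 25 overlapped, with a median difference of 0.03. The background of all symbols was 24.4% for hypothalamus and 28.2% for hippocampus, and it applies to the counts of each list below. In FPKM as deposited, 25 were higher in hypothalamus and 11 in hippocampus, where the background was 35.2% and 19.0%.

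Of 4 other glutathione peroxidase genes, 3 were higher in every hypothalamus library, as Gpx1 and Gpx4 were. Gpx3, a secreted selenoprotein, read 179, 309 and 471 FPKM in hypothalamus and 6.88, 15.1, 8.65 and 8.58 FPKM in hippocampus, a difference of -4.63. Gpx7 read 5.82 to 10.7 and 1.33 to 2.73 FPKM. Gpx2 read 1.53 to 3.45 FPKM in hypothalamus and at most 0.304 in hippocampus. Gpx8 overlapped, at 4.19 to 7.98 FPKM in hippocampus and 5.90 to 12.7 in hypothalamus. Of the other peroxiredoxins, Prdx2, a cytosolic enzyme abundant in neurons and red cells, read 317 to 357 FPKM in hypothalamus and 95.8 to 155 in hippocampus. Prdx3, the mitochondrial member, read 72.2 to 103 against 22.2 to 24.6 FPKM. Prdx4, the member of the endoplasmic reticulum, shared the direction of Prdx1, with 34.6 to 63.9 FPKM in hippocampus and 23.3 to 25.9 in hypothalamus. Prdx5 overlapped, at 169 to 354 and 167 to 271 FPKM. Sod3, the extracellular dismutase, overlapped at 11.1 to 23.3 and 15.2 to 31.3 FPKM, and Ccs, the copper chaperone of Sod1, was at most 0.265 FPKM in hippocampus and was listed at 0 in hypothalamus.

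Thioredoxin, which reduces peroxiredoxins, is encoded by Txn1, and it read 359, 492 and 456 FPKM in hypothalamus and 149, 126, 162 and 137 in hippocampus. Txn1 thus differed in the opposite direction to Prdx1, and their ratio within a library was 1.93 to 2.53 in hippocampus and 6.18 to 14.2 in hypothalamus. Glrx3, a glutaredoxin that binds iron-sulfur clusters, read 143 to 199 FPKM in hippocampus and 66.1 to 92.6 in hypothalamus. Of the 10 genes of the thioredoxin and glutaredoxin system, 6 overlapped. For glutathione synthesis and recycling, 3 of 8 genes were higher in hippocampus and 1 in hypothalamus, and none met the stricter criterion of a log2 difference of 1. The most abundant were Slc3a2, a chain of the cystine transporter, at 97.2 to 132 FPKM in hippocampus and 133 to 146 in hypothalamus, which overlapped once rescaled, and Ggt7, at 50.0 to 81.0 and 33.5 to 53.9 FPKM. In FPKM as deposited none of the 8 was higher in hippocampus and 2 were higher in hypothalamus.

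Among 7 glutathione S-transferases, which join glutathione to reactive compounds, 4 were higher in hypothalamus and 2 in hippocampus, all by at least 2-fold. Of all symbols, 13.4% were at least 2-fold higher in hypothalamus and 14.5% in hippocampus. Gstp1 read 605, 461 and 449 FPKM in hypothalamus and 55.7, 46.0, 66.7 and 50.2 in hippocampus, a difference of -2.90. Mgst1 read 50.6 to 73.3 against 8.41 to 12.7 FPKM, Gstk1 read 55.6 to 61.6 against 10.3 to 16.1, and Gstt1 read 10.1 to 11.3 against 2.09 to 4.37. Gstm1 went the other way, at 43.9 to 57.2 FPKM in hippocampus and 4.77 to 24.7 in hypothalamus, as did Mgst3, at 41.3 to 55.9 and 22.5 to 31.3. Gstm1 and Gstp1 belong to families with near-identical copies, and fragments may have been divided differently among them in the tables.

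Of 8 genes that control Nrf2, 5 overlapped, 2 were higher in hippocampus and 1 in hypothalamus, none with a log2 difference of 1. Sqstm1, which encodes the Keap1-binding adaptor p62, read 222 to 325 FPKM in hippocampus and 392 to 469 in hypothalamus, and of the 8 genes none was higher in hypothalamus with median-of-ratios scaling and 3 were with upper-quartile scaling or in FPKM as deposited. Rbx1, part of the ligase that marks Nrf2 for degradation, read 76.0 to 82.5 and 89.7 to 168 FPKM and overlapped once rescaled. The ratio of Keap1 to Nfe2l2 within a library was 1.07 to 2.83 in hippocampus and 0.992 to 1.82 in hypothalamus, so that it overlapped. The enzymes that act after heme oxygenase differed in the opposite direction to Hmox1. Blvra and Blvrb, the biliverdin reductases, were higher in hippocampus, Blvra at 17.3 to 37.5 against 3.56 to 6.37 FPKM and Blvrb at 35.2 to 66.5 against 15.7 to 30.8. The ferritin chains, which store the iron that heme oxygenase frees, were higher in hypothalamus. Fth1 read 3272 to 3658 against 673 to 1176 FPKM, and Ftl1, listed under its older symbol Ftl, read 58.9 to 66.8 against 4.30 to 7.06. Both ferritin genes have processed copies in the genome, so their levels are uncertain. Hmox2, the constitutive heme oxygenase, was 5.38 to 8.06 times Hmox1 in hippocampus and 3.48 to 6.84 times in hypothalamus, and its own level was 19.4 to 27.6 and 40.8 to 50.2 FPKM. The Hmox2, Keap1 and Txn1 ratios were chosen after values were seen.

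**Figure D4:**
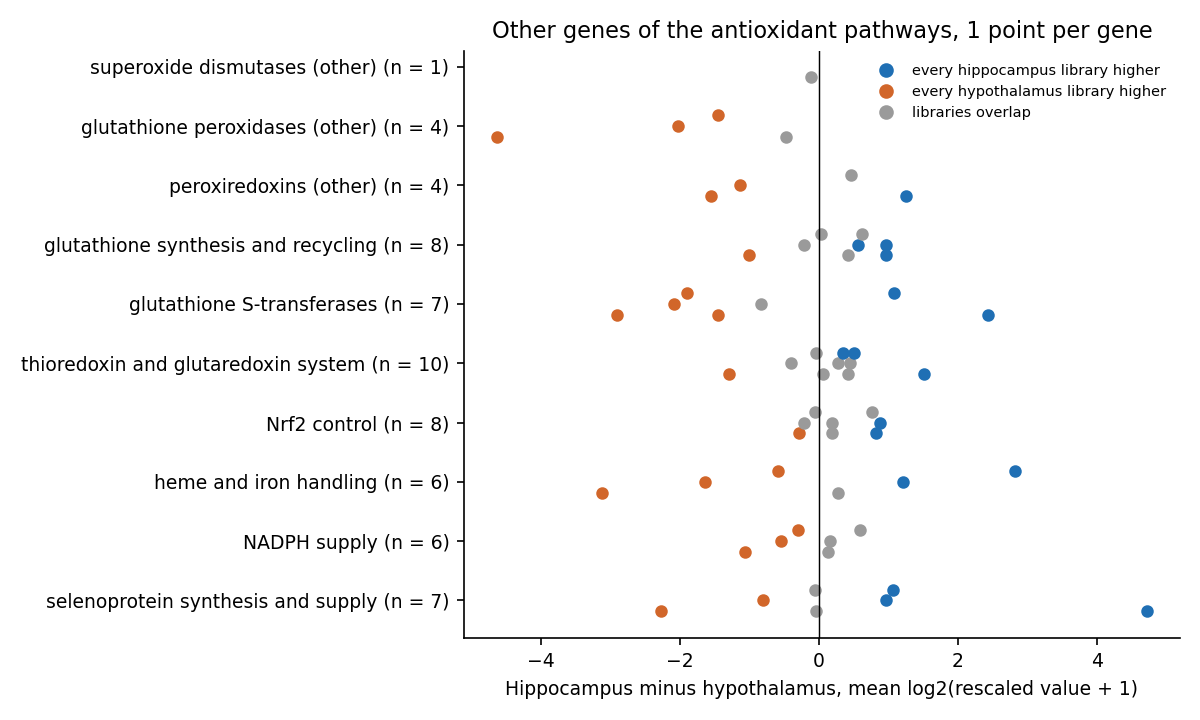
Hippocampus minus hypothalamus, as the mean of log2(rescaled value + 1), for the 61 other pathway genes that reached the minimum of 1 FPKM, 1 point per gene, by list. Glutathione peroxidases lie left of 0, and most other lists hold genes on either side, as in heme and iron handling.

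NADPH feeds both the glutathione and the thioredoxin cycle. Of 6 genes for its supply, 3 were higher in hypothalamus and none in hippocampus, or 2 and 1 with median-of-ratios scaling. Tkt, which encodes transketolase, read 122 to 144 FPKM in hypothalamus and 71.1 to 99.6 in hippocampus, and Taldo1 overlapped at 59.8 to 109 FPKM in hippocampus and 62.9 to 72.8 in hypothalamus. Selenium supply and selenoprotein synthesis matter for Gpx1 and Gpx4, whose active site holds selenocysteine. Of 7 genes in that list, 3 were higher in hippocampus, 2 in hypothalamus and 2 overlapped. Selenop, the selenium carrier (listed as Sepp1), read 288 to 322 FPKM in hypothalamus and 114 to 191 in hippocampus. Selenom (Selm) read 253 to 342 against 38.4 to 79.8 FPKM. Selenok (Selk) was higher in hippocampus, at 31.1 to 48.6 against 19.2 to 23.6 FPKM. Selenow (Sepw1) read 8.90 to 40.5 FPKM in hippocampus and 0.167 to 1.22 in hypothalamus, and it has 2 loci in each table.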

How the data were processed

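RNA was measured in 7 libraries, 4 of hippocampus and 3 of hypothalamus, grouped by the labels. Values were FPKM computed by the authors, 1 deposited table per tissue. The submitters' processing notes name TopHat, TopHat2, Bowtie, Bowtie2, Cufflinks, Cuffdiff and the build rn5, while annotation and strand setting are not given in the sources used here. Loci whose status was not OK in any library were left out (86 in hippocampus, 24 in hypothalamus), and the locus with the highest mean was taken per symbol. Symbols were matched to RefSeq names and synonyms of GRCr8 (15719 of 16153 in hippocampus, 15732 of 16163 in hypothalamus), and its coordinates are given for printed promoters only. Across tables, libraries were scaled so that shared symbols totalled 1000000, and values were compared as log2(value + 1), which understates differences of low genes.

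Depth is not known, since FPKM carries no counts. Among low values, at most 3.66% of loci lay at 1 common ratio in pairs with replicate 1 and at least 19.5% in the other pairs, so whole fragments could not be recovered for all libraries. Pearson r between libraries of a tissue was 0.827 to 0.971 across loci, and no 2 libraries were identical.

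The genes, lists and alternatives were chosen with earlier results of these data known. The text names the 10 genes, the pathway genes that separated at least 2-fold, the 2 most abundant of each list, and, of the marker lists, the most abundant gene and those that bear on a library that stands apart; others are named after their values were seen. A gene that this rule names is not reported here. Hmox2, Txn1 and Keap1 ratios and both reference families were chosen after values were seen. Alternatives were pseudocounts of 0.1 and 5, 3 other scalings, summed loci, loci of any status, no minimum, and leaving out libraries. The shares without replicate 1 and the shares of all ratios were added after values were seen, as were marker sums without the leading gene and families without paralogs. The code for the calls was tested on simulated data with known differences. Python 3.11.15, pandas 2.3.3, numpy 2.4.6 and matplotlib 3.10.9 were used.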

Additional observations from a re-analysis of the deposited data

Results flagged for a closer look

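Among 51 results measured in the 4 hippocampus libraries (the 10 antioxidant genes, the named pathway genes and the sums of marker lists), 2 had a library that stood apart by the gap to its nearest neighbour over the whole range (Dixon's ratio, at its critical value). Chance flags about 1 in 20. None of the 10 antioxidant genes was among them. Gpx7 was lowest in replicate 4, with a ratio of 0.931, at 1.33 FPKM against 2.63 to 2.73 in the others. Selenom was highest in replicate 1, with a ratio of 0.891, at 79.8 FPKM against 38.4 to 42.9.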

How the results depend on the processing

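The 6 antioxidant genes called between the tissues kept their direction under all 15 alternatives. The differences ran from -2.18 to -1.70 for Gpx1, from -1.56 to -1.13 for Prdx6, from -1.32 to -0.87 for Gpx4, from -1.37 to -1.03 for Nqo1, from -1.19 to -0.78 for Hmox1 and from 0.57 to 1.67 for Prdx1. The count of genes higher in hypothalamus, 5 as reported, was 7 in FPKM as deposited and 5 to 6 over libraries left out in turn, and the count at least 2-fold, 4 as reported, ran from 3 to 5. The count of genes higher in hippocampus moved by more than 1.5 times. It went from 1 to 3 without replicate 1 of both tissues, with 1 (Prdx1) then at least 2-fold, and over libraries left out in turn it was 1 to 3, with 0 to 1 at least 2-fold. The added genes were Sod1 and Sod2 without hypothalamus replicate 1 and Sod2 without hippocampus replicate 1. With loci summed, 1 gene (Prdx1) was at least 2-fold higher in hippocampus. Pathway genes higher in hippocampus went from 16 to 27 of 61 without replicate 1 of both tissues, where the share of all symbols went from 28.2% to 40.9%. The causes were not tested beyond the smaller number of libraries that must separate. No paired analysis was possible because the labels do not say that a replicate number marks the same rat, and no test was run between the tables.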
